A study of Mus musculus with 4 samples.

Results

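The genes described here are 33 interferon-induced antiviral genes, measured on 4 single-colour oligonucleotide arrays of mouse CD4+ T cells. The members were all probe sets (groups of probes that together read a transcript) whose platform gene symbol was exactly one of the 33 names. This gave 52 probe sets for 31 genes, of 34945 probe sets with 1 gene symbol in all. Ifi44 had no probe set under its own symbol, and Isg15 was listed only together with another symbol, so both were not analysed here. Of the 31 genes, 28 passed a filter on low values, a mean log2 intensity of at least 4 over the 4 arrays, and were tested among 8629 genes. Mx2, Oasl1 and Oas3 did not pass.

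The first group was CD4+ YFP+ Ly5.2+ T cells whose Foxp3 gene was flanked by loxP sites, treated with HR-MMPCreGFP, which carries the Cre recombinase that cuts out DNA between such sites (Foxp3-deleted cells, 2 arrays). The second was CD4+ YFP+ Ly5.2+ T cells with a wild-type Foxp3 gene and the same Cre treatment (wild-type cells, 2 arrays). All cells were regulatory T (Treg) cells by the study's design, were isolated after adoptive transfer for 6 weeks and were selected for YFP, which Cre switches on, so Cre, transfer and YFP were shared by both groups. The comparison asks how the transcripts of mature Treg cells differ once Foxp3, the transcription factor of this suppressive lineage, is removed. The labels name no strain, age, host or pooling of animals. They also do not say whether samples of a group came from separate animals, so p-values measure the spread between these arrays, which may be technical.

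A log2 intensity of 4 or more was reached by 35.8% to 36.1% of the probe sets, depending on the array. Precision is limited by the number of arrays, and with 2 per group an exact permutation test of a single gene cannot give a two-sided p below 0.333. Foxp3 read 8.77 and 8.75 on the deleted arrays and 11.40 and 11.23 on the wild-type arrays (log2 intensity), so both deleted arrays carried less signal of the targeted gene (difference -2.55, SE 0.28, adjusted p = 0.0749 in limma). The labels do not place its probes relative to the deleted stretch. All 5 Treg markers (Foxp3, Il2ra, Ctla4, Ikzf2 and Tnfrsf18) had a lower mean in deleted cells, and Cd3e, Cd3g, Cd3d and Cd4 were well above the filter on all 4 arrays. Arrays are named deleted 1 and 2 and wild type 1 and 2 after the numbers in the labels, and values of a group are given in that order. In bulk samples fewer cells of a type and less RNA per cell cannot be told apart.

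Type I interferons are made when a cell senses viral nucleic acid. They bind a receptor of the chains IFNAR1 and IFNAR2 on the same or neighbouring cells, and the kinases JAK1 and TYK2 then activate the complex ISGF3, which holds STAT proteins and IRF9. ISGF3 binds the interferon-stimulated response element in the promoters of many antiviral genes, among them many of the members described here. In T cells this response is known for antiviral defence and for restraining proliferation, and many of its genes also answer to interferon gamma.

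The promoters show which members carry that element close to their start. RefSeq promoter windows of assembly GRCm38.p6, from 250 bases before to 50 bases after the gene start, matched 22 of the 31 genes by symbol. The core of the element, searched as GAAA, any 2 bases and GAAA again on both strands, was present in 9 of the 22 genes, or 40.9%, against 3.99% of all 27025 genes with a window. The interferon gamma activated site, searched as TTCNNNGAA on both strands, was present in 9 of 22 as well, against 9.55% of all genes, and the 2 motifs overlapped in the Bst2 window alone. The stretches below are those of all 6 members whose core lay wholly before the gene start. Their gaps between the deleted arrays (first minus second, log2) were 2.02 for Ifit1, 1.12 for Ifit3, 1.76 for Bst2 and 0.98 for Rsad2. For Oas1a and Oas3 they were 0.06 and -0.13. The other members with the core, Ifih1, Eif2ak2 and Trim21, had gaps of 0.0085, 0.23 and 0.32. Among members with a window but no core the gaps ran from -0.504 (Trim25) to 1.496 (Oasl2). Whether the core goes with the gap was not tested. Each stretch runs 5′ to 3′ along the gene, and capitals mark the core, or its reverse complement in Ifit1, Ifit3 and Rsad2.
Ifit1 (chr19:34640765-34640833, plus strand): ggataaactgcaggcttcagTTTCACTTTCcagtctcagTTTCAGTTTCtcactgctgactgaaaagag
Ifit3 (chr19:34583353-34583436, plus strand): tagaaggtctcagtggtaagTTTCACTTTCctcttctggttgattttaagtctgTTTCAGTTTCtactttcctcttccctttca
Bst2 (chr8:71537567-71537622, minus strand): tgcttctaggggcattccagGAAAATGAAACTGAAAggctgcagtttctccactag
Rsad2 (chr12:26456543-26456592, minus strand): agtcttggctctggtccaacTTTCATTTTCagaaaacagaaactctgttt
Oas1a (chr5:120907526-120907565, minus strand): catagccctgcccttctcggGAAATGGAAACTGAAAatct
Oas3 (chr5:120777705-120777754, minus strand): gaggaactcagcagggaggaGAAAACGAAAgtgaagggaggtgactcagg
The first base of the first match lay 104 bases before the gene start in Ifit1, 156 in Ifit3, 130 in Bst2, 120 in Rsad2, 20 in Oas1a and 75 in Oas3. Ifit1 and Ifit3 hold the same pair of 10 letters, TTTCACTTTC and TTTCAGTTTC, at different spacing. A match is a description of these letters and not a measured binding site.

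No shift shared by the antiviral genes was detected between the groups. Of the 28 tested genes 17 had a higher mean in deleted cells, or 60.7%, where 48.1% of all tested genes did. Their median difference, deleted minus wild type, was 0.12 on the log2 scale beside -0.02 over all tested genes, and single differences lay between -0.87 (Isg20) and 1.07 (Mx1). No member was at least 2-fold apart with groups that did not overlap, in either direction, where 5.57% of all tested genes were so higher and 4.93% so lower. Groups that did not overlap, whatever the size, were found for 6 members that were higher (Adar, Dhx58, Ifih1, Irf7, Oasl2 and Rsad2), or 21.4% beside 17.7% of all tested genes, and for 3 that were lower (Irf1, Oas1a and Parp14), or 10.7% beside 22.0%.

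In limma, fitted over all 8629 genes with Benjamini-Hochberg adjustment, 0 members passed 0.05, as did 0 of all tested genes (0.0%). At an unadjusted p of at most 0.05 there were 0 members beside 859 genes, or 9.95%. Centring each array on its median took the number of genes past 0.05 to 60, with 0 members among them. Adjusted p of the members ran between 0.519 and 0.998. All 28 of their 95% intervals held 0, 15 reached a 2-fold increase or more and 12 a 2-fold decrease or more, so the data do not show that these genes are alike in the groups.

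**Figure D1:**
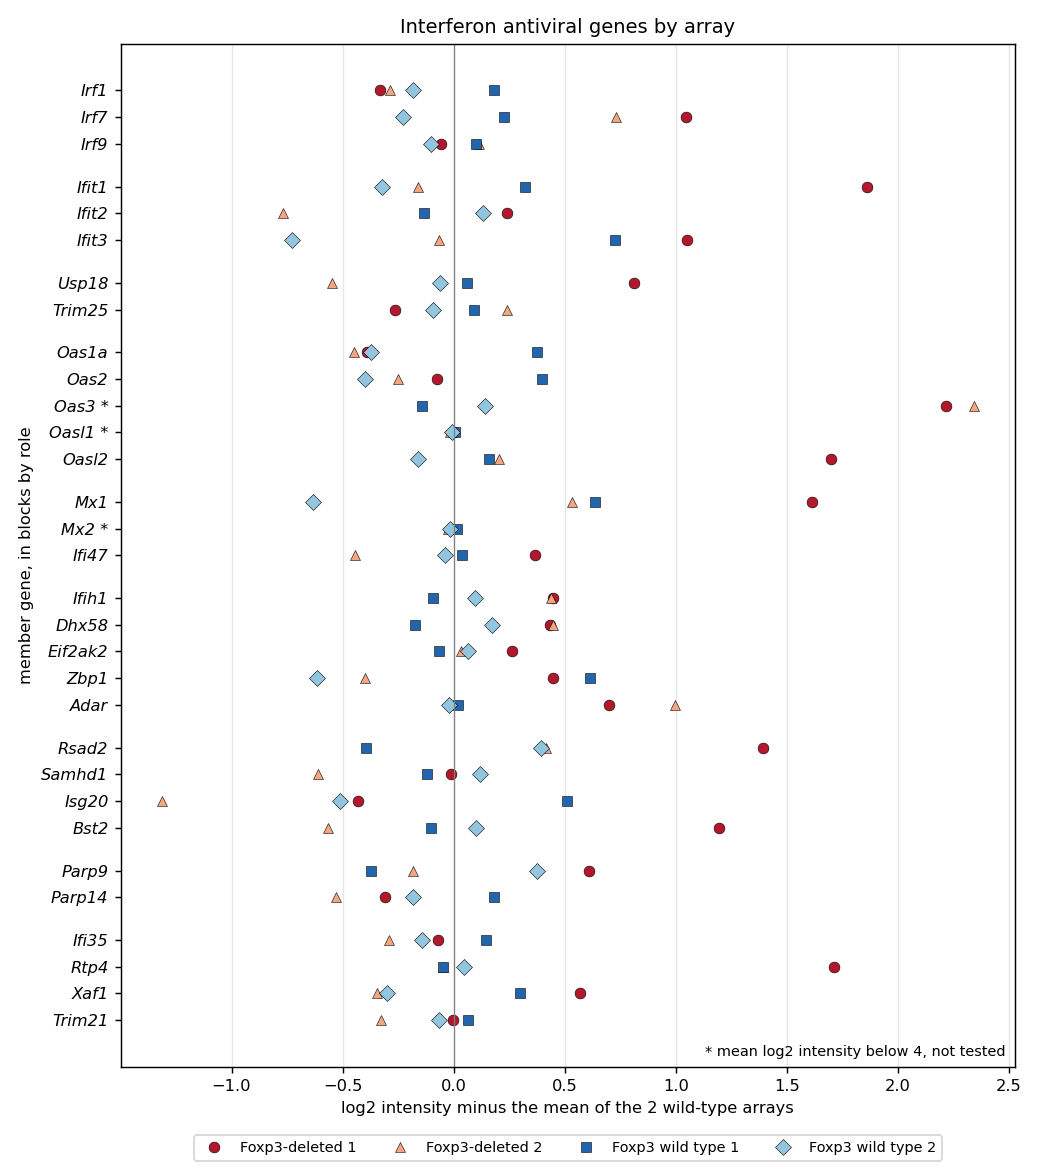
Each row is a member gene in blocks by role, and the x axis is the log2 intensity on each of the 4 arrays minus the mean of the 2 wild-type arrays. Red circles (deleted 1) lie far to the right of orange triangles (deleted 2) for Ifit1, Oasl2, Rtp4 and Bst2, while both deleted arrays lie right of both wild-type arrays for Irf7, Adar and Oas3, which was not tested (star).

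For most members the gap within the deleted group was larger than the difference between the groups. This held for 21 of 28 members, a larger share than the 4757 of all 8629 tested genes (deleted 1 against deleted 2, beside the difference of the group means). A gap between 2 single arrays varies more than a difference of 2 means, so it can be the larger one without any group effect. Deleted 1 was above deleted 2 in 23 of 28 members, or 82.1%, beside 55.3% of all tested genes, and by at least 2-fold in 8 members, or 28.6%, beside 9.28%. No member was 2-fold higher in deleted 2 than in deleted 1, as 5.57% of all tested genes were. The median gap was 0.70 over the members and 0.05 over all tested genes (log2, deleted 1 minus deleted 2). These counts of gaps were made after the values were seen and carry no test.

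Deleted 1 was also the highest of the 4 arrays for 15 of 28 members (53.6%, beside 25.1% of all tested genes). Deleted 2 was the highest for 4 members (beside 23.6%) and the lowest for 11 (39.3%, beside 30.0%). Wild type 1 was the highest for 8 (beside 29.7%) and wild type 2 for 1 (beside 21.6%). Leaving out deleted replicate 1 left 10 of 28 members higher in deleted cells (35.7%, beside 45.7% of all tested genes) and put their median at -0.22. Without deleted replicate 2 the median was 0.44 and 8 members were at least 2-fold higher with no overlap (28.6%, beside 8.67% of all tested genes with that array left out). Without wild-type replicate 1 there were 5 such members (17.9%, beside 5.54%) and without wild-type replicate 2 there was 1 (3.57%, beside 11.5%). A single array in a group overlaps less readily, so these shares are not comparable with those of all 4 arrays. The median gap of the 2 wild-type arrays over the members was smaller than that of the deleted arrays, at 0.19 (wild type 1 minus wild type 2). It is a signed value, in which gaps of both signs, such as 1.46 for Ifit3 and -0.79 for Rsad2, offset each other. Wild type 1 was above wild type 2 in 19 of 28 members (67.9%, beside 51.4% of all tested genes), and 4 members, Ifit3, Isg20, Mx1 and Zbp1, were at least 2-fold higher there (14.3%, beside 5.98% of all tested genes).

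**Figure D2:**
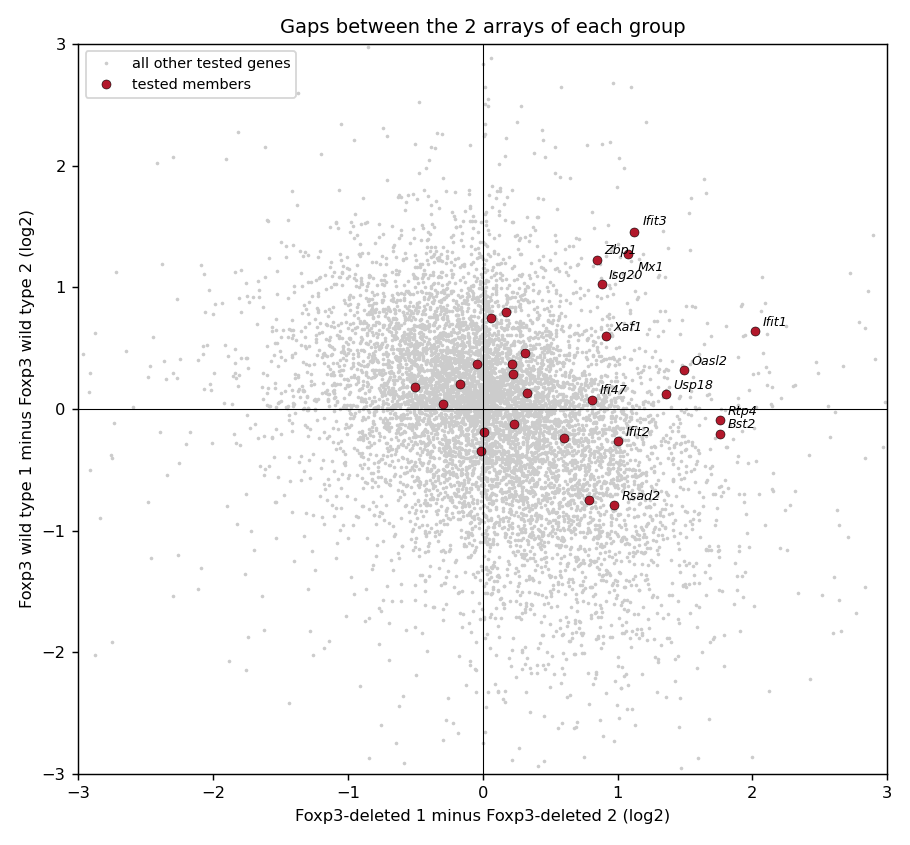
Each point is a tested gene, with the gap between the 2 deleted arrays on the x axis and that between the 2 wild-type arrays on the y axis (log2), and 40 genes lie outside the axes. The members (red) sit mostly right of 0, with Ifit1 (2.02), Bst2 (1.76) and Rtp4 (1.76) farthest, and Ifit3, Mx1, Isg20 and Zbp1 are high on both axes.

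Some markers of myeloid cells were highest on the same array. Lyz2, the lysozyme of macrophages and granulocytes, read 9.69 and 6.30 on the deleted arrays and 5.65 and 7.24 on the wild-type arrays (log2 intensity). Fcgr3 read 5.01 and 3.07 on the deleted arrays and 3.20 and 3.10 on the wild-type arrays, and Cd68 read 4.34 and 2.75 on the deleted arrays and 2.67 and 2.64 on the wild-type arrays. Of 6 myeloid markers 4 (Lyz2, Fcgr3, Cd68 and Csf1r) were highest in deleted 1, and the defining markers Itgam and Cd14 were below 4 on all arrays. Fcgr3 and Cd68 had a mean below the filter and were not tested. The summed intensity of the 6 was 1815 and 591.7 in deleted cells and 613.0 and 491.3 in wild-type cells. Csf1r, well above the filter on all arrays, gave much of it, with 923.5 and 486.8 in deleted cells and 533.2 and 314.2 in wild-type cells. Of the NK cell markers Klra8 was also highest in deleted 1 (7.57 and 5.51 on the deleted arrays and 6.47 and 5.66 on the wild-type arrays), while Ncr1 and Klre1 were below 4 on all arrays. The 3 NK markers summed to 205.9 and 57.0 in deleted cells and 102.4 and 63.8 in wild-type cells. The plasmacytoid dendritic cell markers Siglech and Spib were below 4 on all arrays. The others on that list, Ccr9, Klk1, Pacsin1 and Tcf4, were above 4 on all arrays. They differed by 0.82, 0.21, -1.28 and -0.71 in that order (deleted minus wild type, log2). None of the 6 was highest in deleted 1, and their summed intensity was 418.0 and 662.2 in deleted cells and 785.2 and 536.9 in wild-type cells. The part of these cells in the antiviral genes was not tested.

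The IFIT proteins bind viral RNA and stop its translation. Ifit1 read 10.05 and 8.03 on the deleted arrays and 8.51 and 7.87 on the wild-type arrays (log2 intensity). Deleted 1 stood 4.06-fold above deleted 2, which lay between the wild-type arrays. The means were 9.04 ± 1.43 in deleted cells and 8.19 ± 0.45 in wild-type cells (SD, n = 2 each), a difference of 0.85 (SE 0.72, 95% interval -0.98 to 2.68, adjusted p = 0.77 in limma). Without deleted replicate 1 the difference for Ifit1 was -0.16.

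Ifit3, which stabilises the IFIT1 complex in human cells, read 8.29 and 7.18 on the deleted arrays and 7.97 and 6.51 on the wild-type arrays. Both replicates numbered 1 were above both numbered 2, and the groups overlapped (difference 0.49, SE 0.65). A near-identical copy of the gene, Ifit3b, had no probe set of its own symbol, and the Ifit3 probe set may read both. Ifit2 read 8.51 and 7.50 on the deleted arrays and 8.13 and 8.40 on the wild-type arrays, with deleted 1 the highest and deleted 2 the lowest array (difference -0.26, SE 0.45). The 3 IFIT genes thus shared a gap of at least 2-fold between the deleted arrays, without a shared sign between the groups.

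Rtp4, Bst2, Oasl2 and Usp18 showed the same gap. Rtp4, a chaperone of receptor transport with antiviral activity, read 8.97 and 7.21 on the deleted arrays and 7.21 and 7.30 on the wild-type arrays. Deleted 2 and both wild-type arrays were close together and deleted 1 alone was high, so the difference of 0.83 (SE 0.63) became -0.05 without that array. Bst2 (tetherin), which holds budding virus at the cell surface, read 8.24 and 6.48 on the deleted arrays and 6.94 and 7.14 on the wild-type arrays. Deleted 1 and deleted 2 lay on opposite sides of both wild-type arrays, with a difference of 0.32 (SE 0.64).

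Usp18, the protease that removes ISG15 from proteins and damps interferon receptor signalling, read 6.01 and 4.65 on the deleted arrays and 5.26 and 5.14 on the wild-type arrays. Here too the wild-type arrays lay between the deleted ones, and the difference was 0.13 (SE 0.52). Trim25, a ubiquitin ligase known from human cells to act on the RNA sensor RIG-I, lacked this gap, with 10.80 and 11.30 on the deleted arrays and 11.15 and 10.97 on the wild-type arrays (difference -0.01, SE 0.29). The sign of the Trim25 difference was turned by other probe sets and by centring of the arrays.

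The OAS enzymes make oligoadenylates that activate RNase L, and their differences had both signs. Oasl2 read 5.69 and 4.19 on the deleted arrays and 4.15 and 3.83 on the wild-type arrays. Its groups did not overlap, but deleted 2 and wild type 1 nearly met and deleted 1 was 2.82-fold above deleted 2 (difference 0.95, SE 0.55, adjusted p = 0.684). Oas1a read 8.96 and 8.90 on the deleted arrays and 9.72 and 8.97 on the wild-type arrays, with wild type 1 alone high (difference -0.42, SE 0.38). Oas1a has close relatives in the mouse genome whose transcripts its probes may also read.

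Oas2 read 5.46 and 5.29 on the deleted arrays and 5.93 and 5.14 on the wild-type arrays, and its groups overlapped (difference -0.16, SE 0.40). Oas3 was below the filter and was not tested. It read 4.16 and 4.29 on the deleted arrays and 1.81 and 2.09 on the wild-type arrays. Both wild-type values lie near the floor of these arrays, so no fold is given, and with values below 4 raised to 4 the difference was 0.23. Oasl1, also not tested, lay between 2.92 and 2.95 on all 4 arrays.

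**Figure D3:**
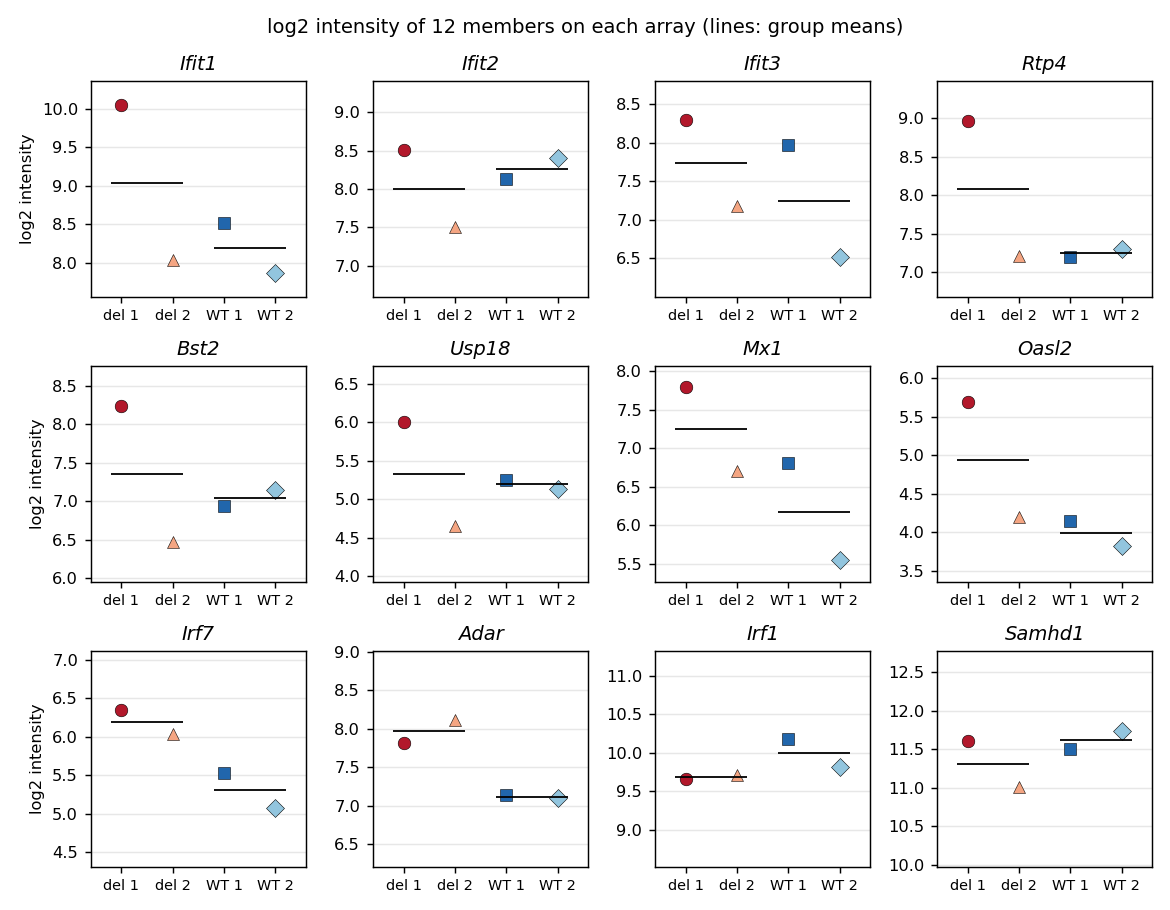
Each panel gives the log2 intensity of a member on the 4 arrays (deleted 1, deleted 2, wild type 1, wild type 2), with lines at the group means and the same height of axis in all 12 panels. Deleted 1 stands alone in Ifit1, Rtp4 and Oasl2, deleted 1 and 2 lie on either side of both wild-type arrays in Bst2 and Usp18, and the groups are apart in Irf7 and Adar.

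Among the interferon-inducible GTPases Mx1, which blocks influenza viruses and is truncated in many laboratory strains, read 7.79 and 6.71 on the deleted arrays and 6.81 and 5.54 on the wild-type arrays. Each group spanned at least 2-fold and the groups overlapped slightly, with means of 7.25 ± 0.76 in deleted cells and 6.18 ± 0.90 in wild-type cells (SD, n = 2 each). Its difference of 1.07 (SE 0.61, 95% interval -0.47 to 2.62, adjusted p = 0.681 in limma) was the highest among the tested members and did not change sign when any array was left out (0.44 to 1.71). Mx2 lay between 2.29 and 2.33 on all arrays and was not tested. Ifi47, an immunity-related GTPase, read 12.63 and 11.82 on the deleted arrays and 12.31 and 12.23 on the wild-type arrays (difference -0.04, SE 0.32).

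The transcription factors of the pathway differed in sign from each other. Irf7, which amplifies interferon production, read 6.35 and 6.03 on the deleted arrays and 5.53 and 5.07 on the wild-type arrays. Both deleted arrays were above both wild-type arrays, and the means were 6.19 ± 0.22 in deleted cells and 5.30 ± 0.32 in wild-type cells (SD, n = 2 each). The difference of 0.89 (SE 0.37, 95% interval -0.04 to 1.81, adjusted p = 0.527 in limma) lay between 0.66 and 1.11 when 1 array was left out.

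Irf9, the DNA-binding part of ISGF3, read 8.44 and 8.61 on the deleted arrays and 8.60 and 8.40 on the wild-type arrays, and differed by 0.03 (SE 0.33, 95% interval -0.80 to 0.86). With quantile normalization the sign for Irf9 turned (-0.02). Irf1, which answers chiefly to interferon gamma, read 9.66 and 9.71 on the deleted arrays and 10.17 and 9.81 on the wild-type arrays. Its deleted arrays were both below the wild-type ones, by 0.31 on average (SE 0.30, adjusted p = 0.802).

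All 5 tested sensors and RNA enzymes had a higher mean in deleted cells, by 0.02 to 0.85, where 48.1% of all tested genes did. The blocks hold few genes each and were chosen with earlier results of these data known, and this count was not tested. Zbp1 turned to -0.0023 with quantile normalization and to -0.06 with the mean over probe sets. Zbp1 was also at -0.40 without deleted replicate 1 and at -0.59 without wild-type replicate 2. Adar, which edits adenosine to inosine in double-stranded RNA, read 7.82 and 8.12 on the deleted arrays and 7.14 and 7.10 on the wild-type arrays. Its groups did not overlap, deleted 2 was its highest array, and the means were 7.97 ± 0.21 in deleted cells and 7.12 ± 0.03 in wild-type cells (SD, n = 2 each). The difference was 0.85 (SE 0.34, 95% interval -0.02 to 1.72), with the lowest adjusted p of the members (0.519 in limma). A further Adar probe set above the filter gave 0.76.

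Ifih1 (MDA5), a sensor of long double-stranded RNA, read 9.41 and 9.40 on the deleted arrays and 8.86 and 9.05 on the wild-type arrays. Dhx58 (LGP2), its regulator, read 5.87 and 5.88 on the deleted arrays and 5.26 and 5.61 on the wild-type arrays. For both the deleted arrays were nearly equal and above the wild-type arrays, with differences of 0.44 (SE 0.31) for Ifih1 and 0.44 (SE 0.34) for Dhx58. Eif2ak2 (PKR), the kinase that halts translation on sensing double-stranded RNA, read 4.67 and 4.44 on the deleted arrays and 4.34 and 4.47 on the wild-type arrays, which overlapped (difference 0.15, SE 0.31). A further Eif2ak2 probe set above the filter read 4.72 and 4.10 on the deleted arrays and 3.42 and 3.98 on the wild-type arrays, without overlap (difference 0.72), and the mean over probe sets gave 0.43. Zbp1, a sensor of Z-form nucleic acid that can trigger cell death, read 7.77 and 6.92 on the deleted arrays and 7.93 and 6.71 on the wild-type arrays, and its gaps within both groups far exceeded the difference of 0.02 (SE 0.57).

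Among the other effectors Rsad2 (viperin), which makes a chain-terminating nucleotide, read 8.84 and 7.86 on the deleted arrays and 7.05 and 7.84 on the wild-type arrays. Deleted 1 was highest, and deleted 2 and wild type 2 were nearly equal (difference 0.90, SE 0.51, adjusted p = 0.677). Isg20, an RNA exonuclease, read 9.73 and 8.85 on the deleted arrays and 10.67 and 9.65 on the wild-type arrays. It had the most negative difference, -0.87 (SE 0.50, 95% interval -2.14 to 0.40), and its groups overlapped.

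Samhd1, which depletes the nucleotides that reverse transcription needs, read 11.61 and 11.01 on the deleted arrays and 11.50 and 11.74 on the wild-type arrays (difference -0.31, SE 0.30). Its 5 probe sets were all lower in deleted cells, by 0.25 to 1.12 on the log2 scale, and 4 of them had groups that did not overlap. One of these, whose identifier marks probes that may read other transcripts, read 6.24 and 5.70 on the deleted arrays and 7.21 and 6.98 on the wild-type arrays. Samhd1 was thus the member with most probe sets and with a single sign among them.

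Parp14, an ADP-ribosyltransferase, was lower on both probe sets, with 11.08 and 10.86 on the deleted arrays and 11.57 and 11.21 on the wild-type arrays on the first, and a difference of -0.42 (SE 0.27) there and -0.44 on the second. Its relative Parp9 read 9.20 and 8.41 on the deleted arrays and 8.22 and 8.96 on the wild-type arrays, and overlapped (difference 0.21, SE 0.46). Xaf1, a binding partner of the apoptosis inhibitor XIAP, read 8.37 and 7.46 on the deleted arrays and 8.10 and 7.50 on the wild-type arrays (difference 0.11, SE 0.47). Ifi35, a partner of NMI, and Trim21, an antibody receptor and ubiquitin ligase of the cytosol, differed by -0.18 (SE 0.20) and -0.17 (SE 0.32).

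**Figure D4:**
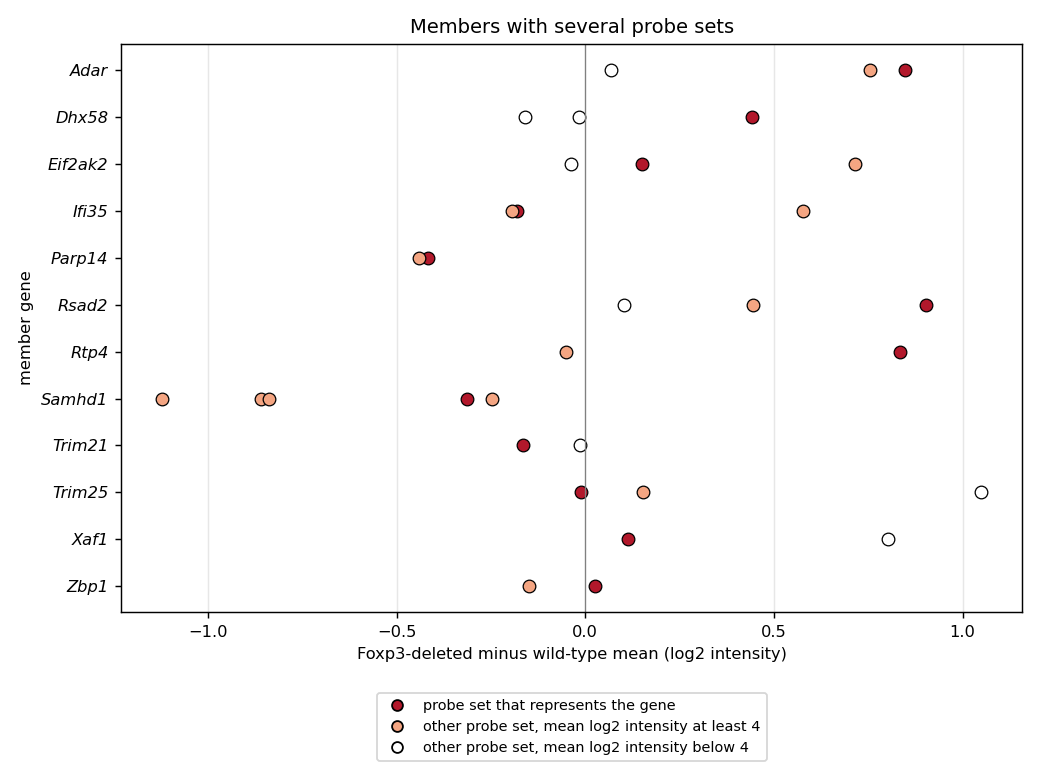
Each point is a probe set of one of the 12 members with several, and the x axis is the mean log2 intensity in deleted cells minus that in wild-type cells. All 5 Samhd1 and both Parp14 probe sets lie left of 0, whereas Ifi35, Rtp4, Trim25 and Zbp1 have probe sets above the filter on both sides.

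Different probe sets of a gene did not always give the same sign. Of 9 members with over 1 probe set above the filter 4 had both signs, namely Ifi35, Rtp4, Trim25 and Zbp1. Over all 41 member probe sets above the filter 22 were higher and 19 lower in deleted cells. For Rtp4 the further probe set read 4.07 and 3.95 on the deleted arrays and 4.15 and 3.97 on the wild-type arrays, close to the filter, and did not show the gap between the deleted arrays. For Rsad2 the further probe set did show it, with 6.11 and 4.60 on the deleted arrays and 5.18 and 4.65 on the wild-type arrays. Each gene was represented by its probe set with the highest mean, and for Ifi35 and Trim25 this was one whose identifier marks probes shared with other transcripts.

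Upstream of the members, interferon transcripts themselves were near the floor. Of 9 type I interferon genes with a probe set 8 were below the filter and these lay between 2.14 and 2.94 on all arrays. Ifnz, the ninth, read 4.58 and 4.98 on the deleted arrays and 4.65 and 4.40 on the wild-type arrays. The receptor chains, named after their values were seen, differed by -0.30 (Ifnar1, SE 0.36) and by -0.0032 (Ifnar2, SE 0.31). Of 12 tested receptor and signalling genes 5 had a higher mean, where 48.1% of all tested genes did, with a median of -0.06. Irf8, an interferon regulatory factor of lymphoid and myeloid cells, was the one at least 2-fold apart without overlap, where 4.93% of all tested genes were so lower. It read 5.64 and 6.09 on the deleted arrays and 7.26 and 7.72 on the wild-type arrays (difference -1.63, SE 0.39, adjusted p = 0.281 in limma).

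Nucleic acid sensing genes divided evenly, with 5 of 9 tested genes higher, beside 48.1% of all tested genes, and a median of 0.01. Cgas, the sensor of cytosolic DNA, read 7.41 and 5.86 on the deleted arrays and 7.84 and 7.45 on the wild-type arrays (difference -1.01, SE 0.59), with deleted 2 alone far below the others. Ddx58 (RIG-I) read 5.93 and 5.70 on the deleted arrays and 4.89 and 5.15 on the wild-type arrays (difference 0.80, SE 0.34, adjusted p = 0.539). Its deleted arrays were both higher, as for its relatives Ifih1 and Dhx58.

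Of 30 tested interferon-induced genes outside the members 19 had a higher mean in deleted cells (median 0.21), where 48.1% of all tested genes did. Of these 30 genes 5 were at least 2-fold higher with groups that did not overlap, a larger share than the 5.57% of all tested genes. So lower were 0, beside 4.93% of all tested genes. The list was chosen with earlier results of these data known, and its share was not tested. Lgals3bp, a secreted galectin-binding glycoprotein, read 6.43 and 6.96 on the deleted arrays and 3.91 and 3.52 on the wild-type arrays (difference 2.98, SE 0.37, adjusted p = 0.0806 in limma, and 2.69 with values below 4 raised to 4). Slfn1, a Schlafen gene known to restrain T cell growth, read 7.58 and 6.78 on the deleted arrays and 5.56 and 4.89 on the wild-type arrays (difference 1.95, SE 0.46, adjusted p = 0.278). Both were higher on each deleted array than on either wild-type array. Epsti1 read 10.83 and 9.33 on the deleted arrays and 8.83 and 9.17 on the wild-type arrays, and Cmpk2, the kinase gene beside Rsad2, read 7.66 and 6.69 on the deleted arrays and 6.03 and 6.24 on the wild-type arrays, both with deleted 1 above the rest. Tor3a, the last of the 5, differed by 1.14 (SE 0.41), and by 0.80 with values below 4 raised to 4.

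Interferon gamma and its targets differed in sign. Ifng, the cytokine of activated T cells, read 9.90 and 10.00 on the deleted arrays and 7.70 and 7.23 on the wild-type arrays, a difference of 2.48 (SE 0.35, adjusted p = 0.109 in limma). Of the 14 tested genes on its list, Ifng included, 5 had a higher mean, where 48.1% of all tested genes did, and the median was -0.30. At least 2-fold apart without overlap, 3 were higher and 1 lower, beside 5.57% and 4.93% of all tested genes. Gbp3, a guanylate-binding protein gene, read 9.41 and 8.14 on the deleted arrays and 10.75 and 11.53 on the wild-type arrays (difference -2.37, SE 0.53). Irgm1, an immunity-related GTPase gene, and H2-Ab1, an MHC class II gene, differed by 1.71 (SE 0.70) and 1.46 (SE 0.38). The gap between the deleted arrays varied among the lists. Deleted 1 was above deleted 2 for 12 of 14 genes on the interferon gamma list (median gap 0.56) and for 20 of the 30 other interferon-induced genes (0.36), but for 5 of 12 receptor and signalling genes (-0.17) and 3 of 9 nucleic acid sensing genes (-0.06), beside 55.3% of all tested genes.

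**Figure D5:**
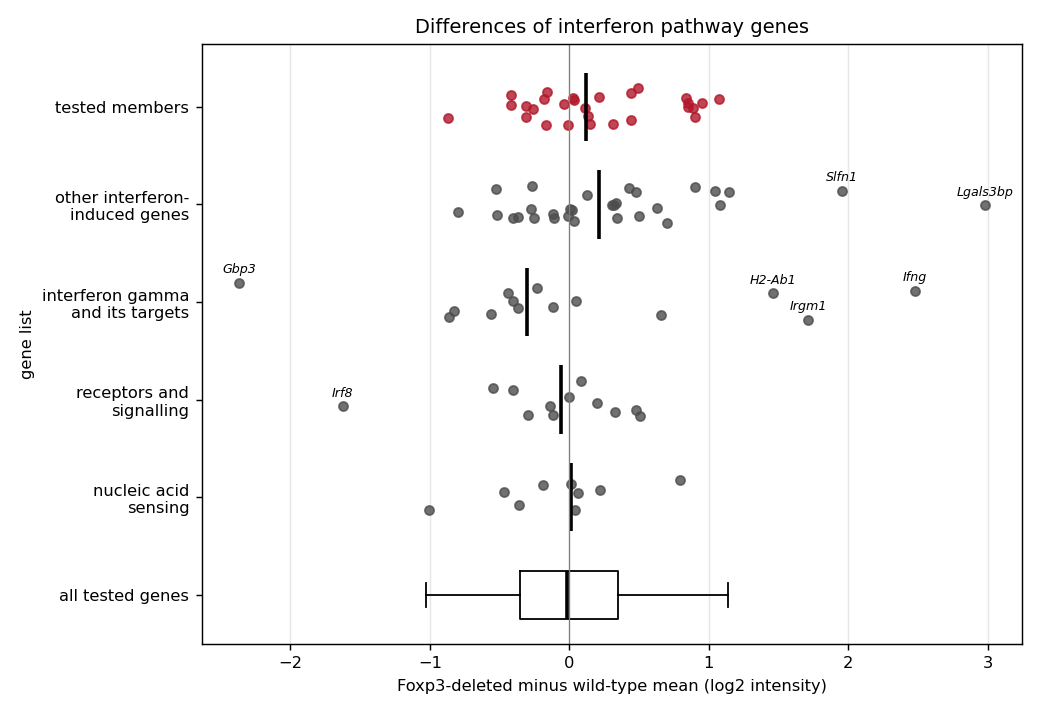
Each point is a tested gene and the x axis its mean log2 intensity in deleted cells minus that in wild-type cells, with a black line at each list's median and a box for all 8629 tested genes (whiskers at the percentiles 5 and 95). The members lie between -0.87 and 1.07, while Lgals3bp, Slfn1 and Ifng lie farther right and Gbp3 and Irf8 farther left in the other lists.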

How the data were processed

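Per the submitters' processing notes the authors ran GCRMA 1.1.3, which gave the deposited linear intensity of each probe set on each array. This method removes background by probe sequence, normalizes between arrays and combines the probes of a set, and it leaves dim sets close to a common floor. No further settings of theirs were found in the labels, and the scale was judged from the values.

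Groups came from the sample titles. The authors' deposited intensities were taken to log2 here, with no pseudocount added. The arrays list 45101 probe sets, of which 34945 had 1 platform gene symbol, 932 had several and 9160 had none, and 64 control probe sets were left out. Each of 18193 genes was represented by its probe set with the highest mean, and the 8629 genes whose mean over the 4 arrays reached 4 on that scale were tested. All 31 members matched the mouse gene table of GRCm38.p6 by Entrez identifier, with 0 changed symbols. The platform table gives no probe positions.

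Groups were compared with limma 3.58.1 in R 4.3.3 (lmFit, eBayes with a trend, 2 residual and 3.3 prior degrees of freedom), in a two-sided test whose p-values were adjusted by Benjamini-Hochberg over every tested gene. The fit was run on simulated data, where the check concerned the bias of the estimated differences alone. Rates of recovered or false calls are not given here. Tables and plots used Python 3.11.15, pandas 2.3.3 and matplotlib 3.10.9.

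The members and the gene lists were chosen with earlier results of these data known. All members are accounted for. Of the other lists, up to 4 tested genes with the largest differences and any gene at least 2-fold apart without overlap could be named. Alternatives covered the filter, the probe set used, normalization, centring, the floor, a pseudocount, the prior variance, the replicate number as a block and leaving out each array. A fit without probe sets that may read several transcripts and a fit with crossed replicate numbers were added after seeing the data.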

Additional observations from a re-analysis of the deposited data

How the results depend on the processing

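No member passed an adjusted p of 0.05 in limma under any of 15 alternatives, with a lowest value of 0.289 (crossed replicate block), nor did any member probe set when each was tested by itself. The number of genes past the threshold, 0 in the fit reported, was 8 with a minimum mean log2 intensity of 5, 30 with the mean over probe sets, 39 with quantile normalization and 60 with arrays centred on their median. None of these was a member. When 1 array was left out, the number of members with a higher mean ranged from 10 to 18, their median difference from -0.216 to 0.442, and the number at least 2-fold apart without overlap from 0 to 8 (higher) and from 0 to 1 (lower). Over all tested genes such calls made up 5.54% to 11.5% (higher) and 6.04% to 8.63% (lower) in the same fits. Leaving out an array leaves 1 array in its group, assumed to vary like the other group. Without a filter 1 member, Oas3, was at least 2-fold higher without overlap, and with each probe set by itself 1 Samhd1 probe set was 2-fold lower.

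The replicate number as a replicate block left 0 genes past the threshold. Each block holds 1 array of each group, so it cannot change a difference or its sign. Same-numbered arrays deviated in opposite directions across tested genes (r = -0.298). The labels do not say whether equal numbers mark paired samples, and this correlation cannot settle it. With crossed replicate numbers as a block 0 genes passed. The sign turned in 14 members under at least 1 alternative. With the mean over probe sets the difference was 0.068 for Ifi35, 0.0709 for Trim25 and -0.0627 for Zbp1. With quantile normalization it was -0.0209 for Irf9 and -0.0023 for Zbp1. For Trim25 it was 0.00056 with centring and 0.15 without probe sets that may read several transcripts. When 1 array was left out, 13 members changed sign, with ranges of -0.57 to 1.20 for Bst2, -0.45 to 0.37 for Ifi47, -0.16 to 1.86 for Ifit1, -0.77 to 0.24 for Ifit2, -0.24 to 1.22 for Ifit3, -0.0723 to 0.133 for Irf9, -0.56 to 0.24 for Oas2, -0.18 to 0.61 for Parp9, -0.0462 to 1.71 for Rtp4, -0.26 to 0.24 for Trim25, -0.55 to 0.81 for Usp18, -0.34 to 0.57 for Xaf1 and -0.59 to 0.64 for Zbp1. Apart from the arrays left out and the settings named, the cause was not tested. Mx2 and Oasl1 lay near the floor on all arrays and Oas3 on the wild-type arrays, and values there cannot be ordered. Both deleted arrays read Oas3 higher (4.16 and 4.29), by an amount that the floor leaves uncertain.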
